A study of Bos taurus with 2 samples.

Results

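Excitation-contraction coupling is the chain of events by which an electrical signal at the muscle cell surface releases calcium from the sarcoplasmic reticulum, the internal calcium store. Of 10 genes of this machinery chosen by name, RYR1, STAC3, CACNA1S, CACNB1, CACNG1, ATP2A1, ATP2A2, CASQ2 and JSRP1 were found in the feature list of 21867 genes, of which 16816 had at least 1 unique molecular identifier (UMI), a tag that marks 1 captured RNA molecule. TRDN was not analysed here. These 9 genes are described in cultured satellite cells, the progenitors of skeletal muscle, isolated from the longissimus muscle of 1 male Holstein calf aged 2 weeks and grown for 1 week in DMEM with 10% FBS, with no differentiation treatment. Droplet libraries that count UMIs at the 3′ end of transcripts were made 2 times from the same cells, as replicates 1 and 2, so the spread between them is technical and the p-values below measure that spread alone.

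In skeletal muscle the voltage sensor is a calcium channel of the t-tubule membrane whose pore subunit, CACNA1S, is assembled with CACNB1, CACNG1 and CACNA2D1 and needs the adaptor STAC3 to work. The sensor touches the ryanodine receptor RYR1, the release channel of the sarcoplasmic reticulum, at a junction that also holds JSRP1 and triadin. Calcium is pumped back by the SERCA pumps, ATP2A1 in fast adult fibres and ATP2A2 in slow muscle, heart and, as a housekeeping form, most other cells, and is stored on calsequestrins such as CASQ2.

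The libraries held 9939 cells and 145631299 UMIs in replicate 1 and 9157 cells and 137818568 UMIs in replicate 2, with medians of 14626 and 15206 UMIs per cell, and 27 barcodes occurred in both. The 15 clusters are those the authors deposited, and the study orders 4 of them as 8, 1, 3 and 12 from the least to the most differentiated. Levels are UMIs of a gene per 1000000 UMIs of the same cells and library (CPM). The summed level of 5 myocyte markers (MYOG, MYMK, MYH3, MYL1 and ACTA1) was 32.3 in cluster 8, 893.5 in cluster 3 and 5744 in cluster 12. The study called clusters 7 and 9 fibro-adipogenic, whose cells gave a summed level of PDGFRA, PPARG and ZNF423 of 167.1 ± 37.5 and 199.2 ± 7.70 CPM (SD, n = 2 libraries). The same sum was 21.3 ± 3.68 in cluster 12. Of the 3 heart markers listed, NPPA and RYR2 had 0 UMIs in all cells. The third, MYH6, had 54 UMIs in cluster 9 and 12 in cluster 12. Levels are compared between clusters, not between genes. The clusters had been defined on these same counts, so a test between them is not independent evidence of the clusters.

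**Figure D1:**
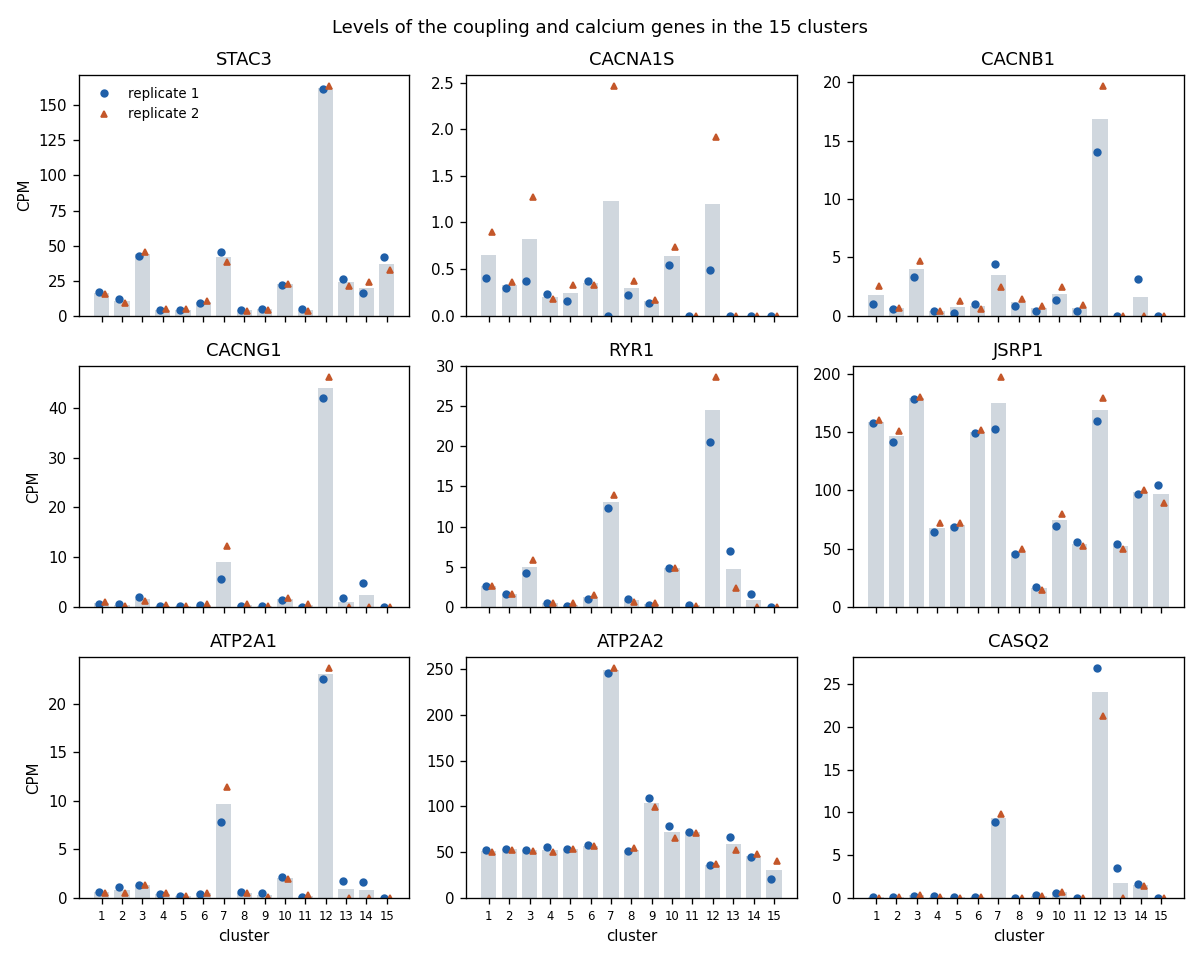
Level of each of the 9 genes in the 15 clusters, in CPM on a linear axis that starts at 0. Bars are the means of both libraries and symbols the single libraries. STAC3, CACNB1, CACNG1, RYR1, ATP2A1 and CASQ2 are highest in cluster 12, ATP2A2 in cluster 7, and JSRP1 is at a similar height in clusters 1, 3, 7 and 12.

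Transcripts of the release channel, the voltage sensor adaptor, the beta and gamma subunits, the fast pump and calsequestrin 2 were concentrated in cluster 12. This myocyte cluster of 627 cells held 4.378% of all UMIs. CASQ2 had 83.24% of its 358 UMIs there, CACNG1 75.97% of 720, ATP2A1 59.79% of 480, RYR1 38.51% of 792, CACNB1 37.39% of 559 and STAC3 35.74% of 5641. CACNA1S had only 119 UMIs in all, 12.61% of them in cluster 12. ATP2A2, with 17065 UMIs, had 2.649% in cluster 12 and JSRP1, with 31637, had 6.644%, and both were counted in all 15 clusters.

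In edgeR's quasi-likelihood test of cluster 12 against all other cells, 7 of the 9 genes were higher and 1 was lower at an adjusted p under 0.05 (Benjamini-Hochberg), where 24.8% of 13224 genes tested were higher and 29.5% lower. The median log2 fold change was 3.88 over the 9 genes and -0.09 over all genes tested. Without TMM scaling the median of all genes shifted by -0.18, and the share of called genes that were higher went from 45.6% to 32%. The direction and call of the 8 genes stayed as they were under every alternative run with a test.

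Among the parts of the voltage sensor, STAC3, which is required for coupling, stood at 161.3 and 163.6 CPM in replicates 1 and 2 of cluster 12. It was at 42.2 and 45.3 in cluster 3, 16.7 and 15.4 in cluster 1 and 4.08 and 3.44 in cluster 8. Both libraries thus gave the same order, with no overlap between these clusters. Against all other cells its log2 fold change was 3.78 ± 0.057 (SE, adjusted p = 5.763e-07, higher in 2 of 2 libraries).

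CACNG1, the gamma subunit, was at 41.9 and 46.2 CPM in cluster 12, 2.01 and 1.16 in cluster 3, 0.524 and 1.02 in cluster 1 and 0.113 and 0.491 in cluster 8. The myocyte cluster stood far above the rest, while the lower library of cluster 3 lay close to the higher library of cluster 1. Set against all other cells, its log2 fold change was 6.29 ± 0.10 (adjusted p = 5.763e-07). The beta subunit CACNB1, which carries the pore subunit to the membrane, reached 13.98 and 19.65 CPM in cluster 12 against 3.33 and 4.69 in cluster 3 and 0.990 and 2.53 in cluster 1, a log2 fold change of 3.88 ± 0.26 against all other cells (adjusted p = 5.241e-05).

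The pore subunit CACNA1S was counted too rarely to follow the other subunits. Cluster 12 gave 3 UMIs in replicate 1 and 12 in replicate 2, or 0.488 and 1.92 CPM, and cluster 3 gave 7 and 21 UMIs, or 0.370 and 1.28. The libraries of these clusters overlapped. In cluster 12 against all other cells it had a log2 fold change of 1.82 ± 0.67 that did not pass the test (adjusted p = 0.0595). With the library as a block it passed (adjusted p = 0.0007729), and it passed in DESeq2 (0.04507). Over the 8 alternatives the adjusted p ranged from 0.0007729 to 0.09457.

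RYR1, the release channel, was at 20.5 and 28.6 CPM in cluster 12, 12.3 and 13.9 in cluster 7, 4.17 and 5.84 in cluster 3, 2.56 and 2.65 in cluster 1 and 0.282 and 0.492 in cluster 9. Clusters 3, 10 and 13 overlapped between libraries, whereas cluster 12 exceeded clusters 1 to 11, 13 and 14 in both. Cluster 15 had 0 UMIs, which at its depth allows up to 13.7 CPM over both libraries. The log2 fold change of cluster 12 against all other cells was 3.95 ± 0.18 (adjusted p = 1.226e-05).

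JSRP1, a junctional protein that binds both the voltage sensor and calsequestrin, did not follow its partners. It stood at 159.2 and 179.4 CPM in cluster 12, 178.7 and 180.3 in cluster 3, 157.7 and 160.3 in cluster 1, 141.5 and 151.1 in cluster 2 and 149.2 and 151.6 in cluster 6. It was lower in clusters 4 and 5, at 64.0 to 71.8, lower again in cluster 8 at 45.2 and 49.4, and lowest in cluster 9 at 17.0 and 14.6. Against all other cells JSRP1 was higher in cluster 12 by 0.82 ± 0.063 on the log2 scale (adjusted p = 0.0001006). Between clusters 12 and 3 the log2 difference was 0.01 ± 0.060 (adjusted p = 0.8988), with opposite signs in the libraries, -0.06 and 0.08.

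CASQ2, the calsequestrin known mainly from heart and slow fibres, had the steepest contrast. Its level was 26.8 and 21.3 CPM in cluster 12, 8.92 and 9.84 in cluster 7 and 0.264 and 0.304 in cluster 3. In cluster 8 it had 0 UMIs in both libraries, which allows up to 0.177 CPM. Cluster 12 lay above cluster 7 in both libraries, and cluster 7 above clusters 1 to 6, 8 to 11, 13 and 14. Cluster 15, with 0 UMIs, was too shallow to be placed below cluster 7, since its count allows up to 13.7 CPM over both libraries. The log2 fold change of cluster 12 against all other cells was 6.93 ± 0.20 (adjusted p = 2.424e-06). The ratio of cluster 12 to cluster 3, which rests on 298 UMIs against 10, was 84.9 with an exact 95% counting interval of 45.5 to 178.9. Its relative CASQ1, the main calsequestrin of fast fibres, had 355 UMIs in all and stood at 1.14 and 1.12 CPM in cluster 12, 0.634 and 0.609 in cluster 3 and 2.40 and 4.02 in cluster 9.

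The SERCA pumps moved in opposite directions. ATP2A1 was at 22.6 and 23.6 CPM in cluster 12 and 1.37 and 1.28 in cluster 3, and its log2 fold change in cluster 12 against all other cells was 5.20 ± 0.15 (adjusted p = 2.349e-06). ATP2A2 was at 35.9 and 36.9 in cluster 12 and 52.9 and 50.9 in cluster 3, so both libraries of cluster 12 lay below both of cluster 3. It was lower by 0.57 ± 0.068 on the log2 scale in cluster 12 than in all other cells (-0.57, adjusted p = 0.0006846). ATP2A3, the remaining pump gene, had 221 UMIs in all and 3 in cluster 12.

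Of the UMIs of ATP2A1 and ATP2A2 together, ATP2A1 made up 38.84% in cluster 12 (exact binomial 95% interval 35.31 to 42.46, which covers counting error only). The share was 38.61% in replicate 1 and 39.05% in replicate 2. It was 2.495% in cluster 3 and 1.148% in cluster 1, and clusters 8 and 9 gave 0.9934% and 0.2888%. The share counts captured transcript ends and is not a share of pump protein.

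The regulators of the pump were rare. SLN, the sarcolipin gene, had 39 UMIs in all, of which 12 were in cluster 12, and PLN, which encodes phospholamban, had 181 with 11 in cluster 12. Neither passed the filter on low counts between clusters 12 and 3. MRLN, which encodes myoregulin, an inhibitor of the pump in skeletal muscle, had 15 and 17 UMIs in cluster 12 against 0 and 2 in cluster 3, a ratio of levels of 45.6 with a counting interval of 11.6 to 392.6.

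Along the 3 steps from cluster 8 to cluster 12, the genes did not rise together. From cluster 8 to cluster 1, 5 of the 9 genes were abundant enough to test, and STAC3 (log2 fold change 2.12 ± 0.15, adjusted p = 2.908e-05), JSRP1 (1.78 ± 0.063, 1.015e-06) and RYR1 (1.68 ± 0.35, 0.006961) were higher in edgeR's quasi-likelihood fit (p adjusted by Benjamini-Hochberg). Of 11194 genes tested, 17.2% were higher. CACNB1 differed by 0.67 ± 0.54 and ATP2A2 by -0.02 ± 0.067, and neither passed. RYR1 rested on 14 UMIs in cluster 8 and had an adjusted p of 0.0508 in DESeq2. It passed the filter on low counts only through cluster 1, so its call adds nothing to the count.

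From cluster 1 to cluster 3, 5 of the 8 genes tested were higher, against 21.1% of 11362 genes. ATP2A1, with 20 UMIs in cluster 1, and CACNG1, with 26, passed the filter on low counts only through cluster 3. Their calls, in this fit or an alternative, thus add nothing to the count. STAC3 rose by 1.48 ± 0.073 on the log2 scale (adjusted p = 2.08e-05), CACNB1 by 1.22 ± 0.39 (0.0409), ATP2A1 by 1.19 ± 0.33 (0.02601), RYR1 by 0.97 ± 0.21 (0.01023) and JSRP1 by 0.21 ± 0.043 (0.007162). CACNG1 differed by 1.08 ± 0.44 (adjusted p = 0.08984), by 1.96 in replicate 1 and 0.20 in replicate 2. With the library as a block CACNG1 passed (adjusted p = 0.004215), and when the cells were clustered anew without these genes it did too (0.01269). CACNB1 passed in 4 of 7 alternatives, not in DESeq2 (0.06807), without TMM (0.05678) or without doublets (0.06131), and ATP2A1 did not pass in DESeq2 (0.2387) or under that clustering (0.1654).

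From cluster 3 to cluster 12, 6 of the 9 genes were higher and ATP2A2 was lower, against 18.2% higher and 15.6% lower of 10811 genes. The largest changes were in CASQ2 (log2 fold change 6.45 ± 0.27, adjusted p = 2.061e-06), CACNG1 (4.86 ± 0.18, 1.158e-06) and ATP2A1 (4.21 ± 0.17, 1.758e-06). CASQ2, with 10 UMIs in cluster 3, passed the filter on low counts only through cluster 12, so its call adds nothing to the count. RYR1 (2.40 ± 0.20, 8.975e-05), CACNB1 (2.17 ± 0.23, 0.000256) and STAC3 (1.99 ± 0.062, 6.233e-07) changed less. ATP2A2 fell by 0.41 ± 0.074 on the log2 scale (-0.41, 0.003843), and CACNA1S, at 0.68 ± 0.76 (0.5352), did not pass. The median was 2.17 over the 9 genes and -0.02 over all genes, and these 7 calls held under all 7 alternatives with a test. The share of called genes that were higher was 53.8% with TMM scaling, 38% without it and 62.7% in DESeq2.

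**Figure D2:**
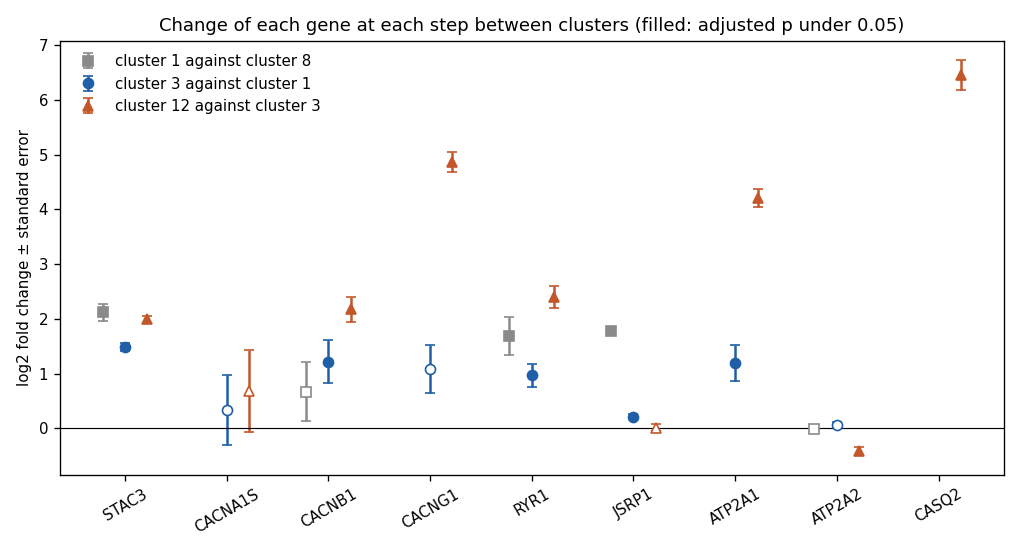
Log2 fold change of each gene, with its standard error, at the steps from cluster 8 to 1 (squares), 1 to 3 (circles) and 3 to 12 (triangles). Filled symbols passed the test, and a missing symbol did not pass the filter on low counts. CASQ2, CACNG1 and ATP2A1 lie above 4 at the last step, whereas JSRP1 lies at 1.78 at the first step and at 0.01 at the last.

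Whether the last step exceeded the one before it was compared in 1 fit over the sums of clusters 1, 3 and 12, a comparison added after the data had been seen. CACNG1 (difference of log2 fold changes 3.79 ± 0.56, adjusted p = 0.002133), ATP2A1 (3.03 ± 0.42, 0.001462), RYR1 (1.44 ± 0.37, 0.02506) and STAC3 (0.53 ± 0.11, 0.01266) rose more at the last step, and ATP2A2 had the opposite sign (-0.46 ± 0.11, 0.02256). These were 4 higher and 1 lower of 9 genes, where 9.73% of 11618 genes were higher and 10.2% lower. The share of called genes that were higher was 48.8%, and 38.1% without TMM scaling, with the same calls for the 9 genes. CASQ2 gave 4.35 ± 1.64, with an adjusted p of 0.09909 that became 0.03259 with the library as a block, and CACNB1 (0.97 ± 0.59, 0.3001, block 0.01794) and JSRP1 (-0.18 ± 0.094, 0.2209, block 0.01719) likewise passed only with the block.

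In cluster 3 against all other cells, a group that holds cluster 12, 4 of the 9 genes were higher and 1 was lower, against 24.5% and 25.4% of 13082 genes. STAC3 was higher by 1.54 ± 0.049 on the log2 scale, CACNB1 by 1.37 ± 0.28, RYR1 by 1.13 ± 0.20 and JSRP1 by 0.95 ± 0.049. CASQ2 was lower (-2.17 ± 0.30, adjusted p = 0.001827). The median of all genes moved by -0.13 without TMM scaling, and the share of called genes that were higher fell from 49.1% to 32.4%. With the library as a block CACNG1 (-0.59, adjusted p = 0.006745) and ATP2A2 (-0.11, 0.02781) were also lower and CACNA1S (1.25, 0.001527) higher. With the other clusters weighted equally RYR1 no longer passed (0.51, adjusted p = 0.07338, with a range over its alternatives from 3.767e-14).

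The cells were also ordered by a measure that used none of the 9 genes, the summed level of 16 muscle structure genes such as ACTA1, MYH3 and TNNT3, in 17198 cells of at least 2000 UMIs. From the lowest to the highest of 5 bins there were 15854, 725, 412, 154 and 53 cells. The highest bin, at 40000 CPM and over, held 41 cells of cluster 12, 6 of cluster 7 and 6 of cluster 14. Of the 9 genes, 7 had their highest mean level in that bin, among them CACNA1S with only 2 UMIs there, both in replicate 2.

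CASQ2 rose over the widest range, from 0.152 and 0.08001 CPM in replicates 1 and 2 of the lowest bin to 1.17 and 1.54, 6.68 and 5.81, 42.8 and 41.4, and 214.7 and 143.6 in the highest. CACNG1 went from 0.417 and 0.456 through 4.68 and 5.84, 23.1 and 27.9, and 72.3 and 66.4 to 163.7 and 215.3. ATP2A1 went from 0.600 and 0.496 through 3.81 and 2.61, 12.9 and 12.8, and 39.7 and 41.4 to 85.9 and 128.2. For these genes the libraries of neighbouring bins did not overlap at any point.

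RYR1 rose from 1.32 and 1.58 CPM in the lowest bin to 28.0 and 37.8 in the fourth and 83.2 and 89.7 in the highest. STAC3 was at 11.18 and 10.83 in the lowest bin, 64.0 and 79.1 in the second, 203.0 and 216.2 in the fourth and 249.6 and 246.1 in the highest. CACNB1 went from 0.858 and 1.30 to 34.9 and 38.5. All 3 genes were higher in the highest bin than in the bin before it, in both libraries.

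JSRP1 was at 103.6 and 108.8 CPM in the lowest bin, 168.3 and 186.4 in the third and 142.2 and 146.1 in the highest. ATP2A2 went from 62.2 and 59.9 in the lowest bin to 31.9 and 37.8 in the fourth and 53.7 and 25.6 in the highest, where it rested on 30 UMIs. CACNA1S had 2 UMIs in the highest bin.

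**Figure D3:**
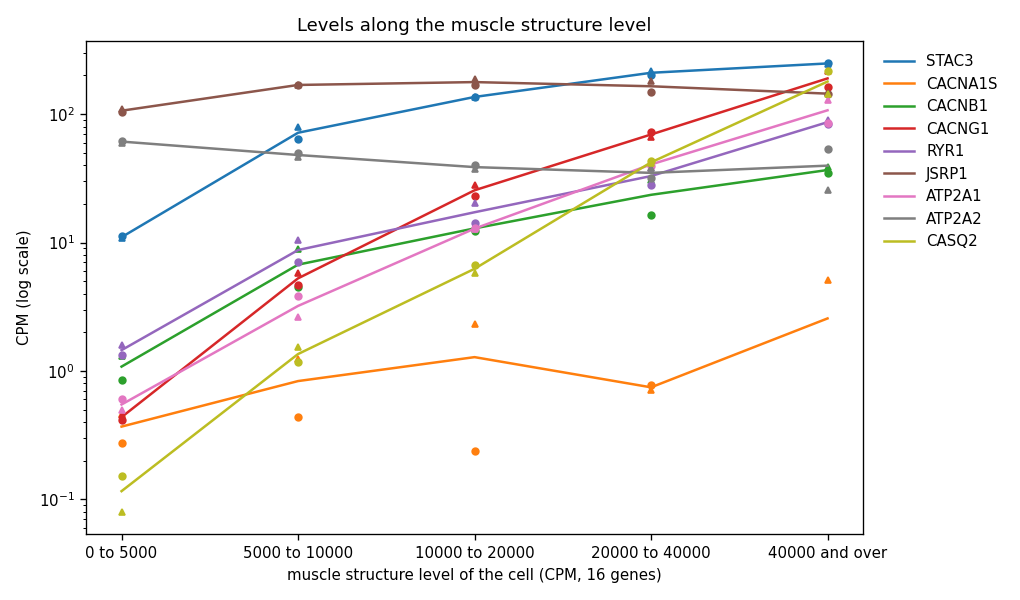
Level of each gene, in CPM on a log axis, in cells binned by the summed level of 16 muscle structure genes. Lines join the means of both libraries, circles are replicate 1 and triangles replicate 2, and a library at 0 has no symbol. CASQ2 goes from 0.116 to 179.1 on average, while JSRP1 stays between 106.2 and 177.4.

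Over the same bins the ATP2A1 share of the UMIs of both pumps went from 0.8909% (exact 95% interval 0.7505 to 1.05) through 6.287% (4.587 to 8.375), 24.87% (20.68 to 29.45) and 53.69% (46.58 to 60.7) to 73.21% (64.02 to 81.14). In replicate 1 the highest bin gave 61.54% of 52 UMIs and in replicate 2 83.33% of 60. The fourth bin gave 55.43% (44.7 to 65.81) in replicate 1 and 52.25% (42.56 to 61.82) in replicate 2. In both libraries the fast pump thus supplied the larger part of the counted UMIs in the highest 2 bins and the smaller part below. The intervals of the fourth bin include equal parts, as does that of replicate 1 in the highest bin (47.02 to 74.7).

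**Figure D4:**
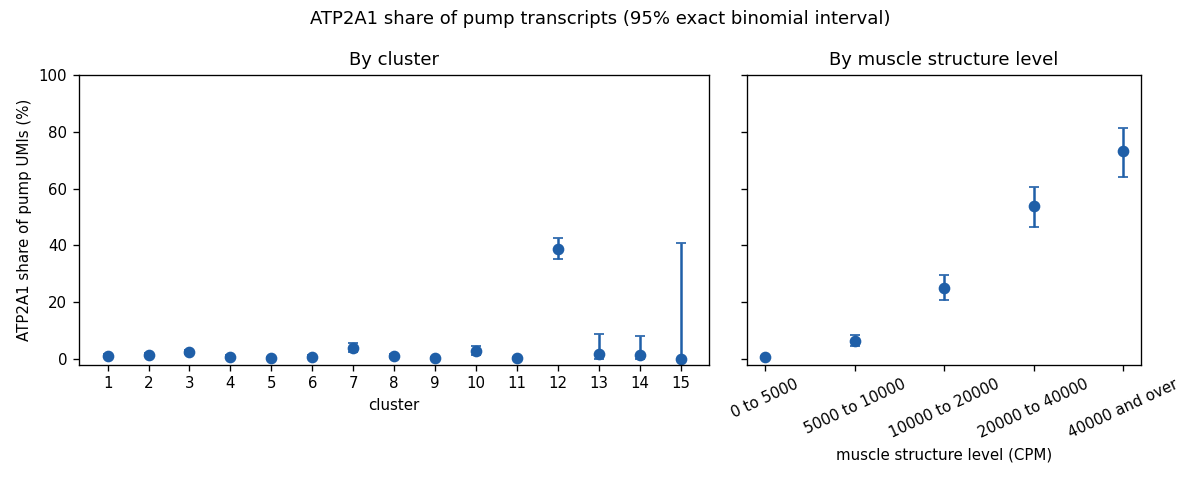
Percent of the UMIs of ATP2A1 and ATP2A2 that were ATP2A1, by cluster on the left and by muscle structure level on the right, over both libraries with exact 95% binomial intervals. Cluster 12 stands at 38.84%, with 3.832% as the next highest, in cluster 7, and the share rises from 0.8909% to 73.21% over the bins.

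Cell by cell, JSRP1 was detected in 91.55% of the cells of cluster 12, STAC3 in 87.08%, CACNG1 in 34.29%, RYR1 in 32.06%, CACNB1 in 28.39%, ATP2A1 in 23.44%, CASQ2 in 21.21% and CACNA1S in 2.233%. In the fibro-adipogenic cluster 9, which should lack the muscle genes and was sequenced more deeply (median 23011 UMIs per cell against 19113), JSRP1 was detected in 19.54%, STAC3 in 9.907%, RYR1 in 0.9259%, CASQ2 in 0.6481%, ATP2A1 in 0.6481% and CACNG1 in 0.463%. Those shares were taken as the background, and the shares in cluster 12 lay above it for each of these genes.

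After every cell had been thinned to 2000 UMIs, STAC3 was detected in 28.87% of the cells of cluster 12 and 1.111% of those of cluster 9. RYR1 was detected in 5.263% of cluster 12 and in 0 of 1080 cells of cluster 9, which allows a share of up to 0.2778%. The thinned share of CASQ2 was 5.742% in cluster 12 and that of CACNG1 7.815%, again against 0 of 1080.

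Leaving out ATP2A2 and JSRP1, a choice made after their levels had been seen, a cell of cluster 12 had UMIs of a median of 2 of the other 7 genes. At least 3 of the 7 were found in 38.12% of the 627 cells and none in 5.582%, and the most in 1 cell was 7. In cluster 3, 48.72% of 2034 cells had none of the 7 and 1.082% had at least 3. In cluster 9, 86.67% had none and 0.1852% at least 3.

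Cluster 7 was the other cluster with high levels, and its comparison with all other cells was added after the data had been seen. These cells were shallow, with a median of 1389 UMIs, and 308 of 1298 had at least 2000. ATP2A2 stood at 246.5 and 251.0 CPM there, against 109.0 and 99.6 in cluster 9, 78.4 and 65.1 in cluster 10, 71.8 and 71.4 in cluster 11 and 49.8 to 57.8 in clusters 1 to 6. Both libraries of cluster 7 thus exceeded every other cluster, and the log2 fold change was 1.44 ± 0.092 (edgeR with Benjamini-Hochberg adjustment, adjusted p = 0.0001431).

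CASQ2 (log2 fold change 2.33 ± 0.33, adjusted p = 0.002068), ATP2A1 (1.95 ± 0.31, 0.003513), RYR1 (1.63 ± 0.28, 0.004658), CACNG1 (1.27 ± 0.38, 0.03749) and STAC3 (0.43 ± 0.12, 0.03263) were also higher in cluster 7. Together these were 6 of 9 genes, against 18.3% of 13036 genes. Because cluster 7 was taken up after its high levels of these genes had been seen, that count and the p-values are a description. The muscle genes rested on few UMIs, 28 for RYR1, 21 for ATP2A1 and 20 each for CASQ2 and CACNG1. STAC3 did not pass with the library as a block (adjusted p = 0.06005, range 0.001726 to 0.8951 over its alternatives), and CACNG1 passed in 5 of 8 alternatives. RYR1, ATP2A1, ATP2A2 and CASQ2 passed in all 8.

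The study called this cluster fibro-adipogenic, like cluster 9, and markers of several cell types were high in its cells. The 5 myocyte markers summed to 906.7 ± 132.6 CPM in cluster 7, the 3 fibro-adipogenic markers to 167.1 ± 37.5 and the 4 smooth muscle or pericyte markers (MYH11, CNN1, RGS5 and CSPG4) to 271.1 ± 19.1, compared with 893.5, 13.7 and 16.2 in cluster 3. Their part in the levels of cluster 7, and that of the fibro-adipogenic markers in the ATP2A2 level of cluster 9, was not tested. Scaling mattered more for this cluster than for the others, since the median of all genes moved by 0.65 on the log2 scale without TMM and the share of called genes that were higher went from 40.9% to 74.6%. JSRP1, at 152.8 and 196.9 CPM, differed by 0.02 ± 0.14 (adjusted p = 0.9216) with TMM and by 0.67 (0.008716) without.

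When cells were clustered anew without the 9 genes, the rest of the calcium list or the muscle structure genes, 12 of the deposited clusters were matched, cluster 12 by a cluster of 887 cells of which 579 were shared. STAC3, CACNB1 and CACNG1 were still highest there. RYR1 was then at 15.8 and 24.2 CPM in the match of cluster 12 and 22.91 and 23.99 in that of cluster 7, ATP2A1 at 15.3 and 16.3 against 14.8 and 20.9, and CASQ2 at 17.1 and 15.2 against 24.3 and 14.6. For these 3 genes the libraries of both clusters overlapped. The ATP2A1 share was 29.0% in the match of cluster 12 and 8.757% in that of cluster 7. The match of cluster 7 had 1023 cells, of which 991 were shared. It held 31 ATP2A1 UMIs, against 21 in the whole deposited cluster 7, so part of them came from cells outside that cluster.

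Of 60 further genes of t-tubules, junctions, calcium release, uptake and entry, 57 were in the feature list and 42 could be tested between clusters 12 and 3. Of these, 23 were higher and 5 lower, with a median log2 fold change of 0.60. The share higher, 54.8%, compares with 18.2% of all genes tested, and the share lower, 11.9%, with 15.6%. Genes such as MRLN, CAMK2A and SYPL2, with 2, 3 and 18 UMIs in cluster 3, passed the filter on low counts only through cluster 12 and so had to differ, and these counts are a description. With the library as a block, 26 were higher and 8 lower. The shares of all genes given above come from the fit without a block, so they cannot be set against these 2 counts.

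Among t-tubule and voltage sensor genes, 6 of 9 tested were higher. SCN4A, the muscle sodium channel that carries the action potential, was at 7.48 and 9.91 CPM in cluster 12 and 0.792 and 0.913 in cluster 3 (log2 fold change 3.44 ± 0.27). It too passed the filter on low counts only through cluster 12, so its call adds nothing to the count. CACNA2D1, the remaining subunit of the voltage sensor, changed by 0.30 ± 0.083 (adjusted p = 0.02554), a call lost without TMM (0.089), in DESeq2 (0.2015) and under the new clustering (0.1087). In edgeR's test of cluster 12 against all other cells CACNA2D1 differed by 0.12 ± 0.075 and did not pass (adjusted p = 0.2272).

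Of the junction genes, 3 of 6 were higher and 1 lower. SYPL2, which encodes mitsugumin 29 of the triad, was at 6.83 and 6.39 CPM in cluster 12 and 0.687 and 0.304 in cluster 3 (3.77 ± 0.36). JPH1, junctophilin 1, which ties the sarcoplasmic reticulum to the t-tubule, was at 43.2 and 39.8 against 25.4 and 21.4 (0.92 ± 0.11). SELENON, a selenoprotein of the endoplasmic reticulum, was lower in cluster 12, at 16.3 and 19.0 against 27.9 and 29.0 (-0.59 ± 0.10).

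Of the release genes, 2 of 8 were higher and 3 lower. S100A1, which binds the ryanodine receptor, stood at 98.2 and 81.5 CPM in cluster 12 against 35.7 and 32.4 in cluster 3 (1.496 ± 0.11). ITPR2, an inositol trisphosphate receptor, was at 14.2 and 12.1 against 6.18 and 7.12 (1.08 ± 0.16). FKBP1B, a stabiliser of ryanodine receptors, was lower (-0.68 ± 0.18, adjusted p = 0.02315), but not in DESeq2 (0.2145) or under the new clustering (0.1392).

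In the uptake and storage group 2 of 5 tested genes were called higher, MRLN, with the few UMIs given above, and the sarcoplasmic reticulum protein gene SRL, which was at 7.64 and 8.95 CPM against 2.85 and 4.2 (1.34 ± 0.24). CALR, calreticulin of the endoplasmic reticulum, was lower, at 838.1 and 841.2 against 1125 and 1065 (-0.29 ± 0.051), though not under the new clustering (adjusted p = 0.07729). Of the genes of calcium entry and exit at the plasma membrane 3 of 7 were higher, with ORAI1, the store-operated channel, at 1.14 ± 0.15, its activator STIM2 at 0.54 ± 0.12 and the calcium pump ATP2B1 at 0.52 ± 0.074 on the log2 scale. The STIM2 call was lost in DESeq2 (adjusted p = 0.05772). In edgeR's test of cluster 12 against all other cells, 3 of 8 tested genes of this group were higher and 2 lower. Of all genes tested there, 24.8% were higher and 29.5% lower. STIM1, from the same list, was among the lower genes (log2 fold change -1.41 ± 0.18, adjusted p = 0.0009424).

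The 7 mitochondrial and cytosolic genes tested were called higher in cluster 12 than in cluster 3, a count that includes CAMK2A. CAMK2A, a calcium-dependent kinase known mainly from brain, had 32 UMIs against 3, a ratio of levels of 30.4 with a counting interval of 9.51 to 155.1. CAMK2B was at 7.97 and 7.99 CPM against 2.27 and 1.83 (log2 fold change 2.05 ± 0.22) and CAMK2G at 30.6 and 27.0 against 22.2 and 20.6 (0.52 ± 0.10).

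**Figure D5:**
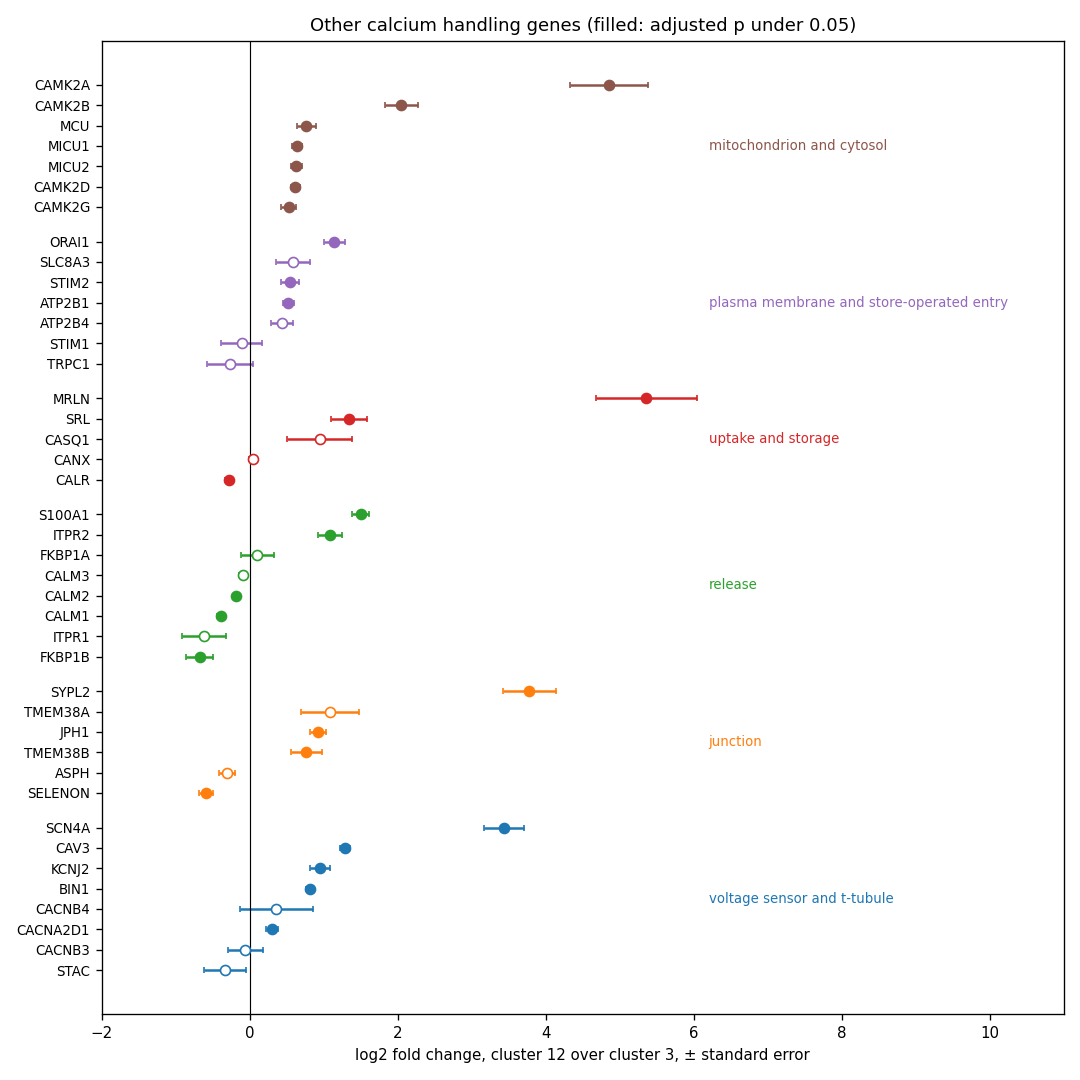
Log2 fold change between cluster 12 and cluster 3, with its standard error, of further calcium handling genes that could be tested, grouped by role. Filled symbols passed the test, and most of them lie to the right of 0, with 5 to the left.

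In cluster 12 against all other cells the same list gave 25 higher and 8 lower of 49, or 51% and 16.3%, where 24.8% and 29.5% of all genes were called. In cluster 3 against all other cells it gave 15 and 12 of 47, or 31.9% and 25.5%, near the 24.5% and 25.4% of all genes. From cluster 1 to cluster 3 it gave 11 and 5 of 40, or 27.5% and 12.5%, against 21.1% and 19.1%. From cluster 8 to cluster 1 it gave 10 and 7 of 36, or 27.8% and 19.4%, against 17.2% and 16.9%. With the library as a block the step from cluster 1 to cluster 3 gave 15 higher and 9 lower, counts without a share of all genes from the same fit. In cluster 7 there were 10 higher and 10 lower of 48 with TMM, where 18.3% of all genes were higher and 26.4% lower, and 22 and 5 without, where 4768 of 13036 genes were higher and 1625 lower.

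Over the 30 sums of cluster and library, the gene whose log2 level was most like that of STAC3 was MYMK, a fusion protein of myoblasts (r = 0.99), followed by PDLIM3 (0.98). RYR1 was most like TACC2 (0.94), ATP2A2 like NRDC (0.93) and JSRP1 like MX1 (0.89). The same feature, which carries no gene name, was nearest to ATP2A1 (0.91), CACNG1 (0.90) and CACNB1 (0.84). It was also among the nearest 2 for CASQ2 (0.88). ZNF106 was among the nearest 2 for both ATP2A1 (0.91) and CASQ2 (0.89), IL17B for CACNG1 (0.89) and SETD7 for CACNB1 (0.83), while the best value for CACNA1S was 0.73. These correlations describe sums that share libraries and clusters of very unequal depth.

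Between the libraries, CACNA1S was at 0.281 CPM in replicate 1 and 0.566 in replicate 2 over all cells, CACNB1 at 1.59 and 2.38 and RYR1 at 2.45 and 3.16. On the log2 scale replicate 2 was higher by 1.00 for CACNA1S and by 0.58 for CACNB1, beyond the 95th percentile of 0.45 over 12046 genes with at least 100 UMIs. CASQ2, at -0.21, lay beyond the 5th percentile of -0.16. RYR1, at 0.36, and the remaining genes, from -0.06 to 0.22, lay between these percentiles.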

How the data were processed

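The authors made 2 libraries with the Chromium 3′ kit v3 and, per the labels and methods, counted UMIs with Cell Ranger 3.0.2 on ARS-UCD1.2, combining the libraries at equal numbers of mapped reads per cell. The deposited matrix holds the UMI counts after that combination, for 21867 genes in 19096 cells. A deposited table holds, for 16816 genes and 15 clusters, an average scaled to a common total, and the authors' log2 fold changes and p-values, which were not used. Cells were assigned to clusters by elimination from these averages, and the resulting sums matched all 252240 pairs of gene and cluster.

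The genes and lists were chosen with earlier results of these data known. Levels, planned per 10000 UMIs, are printed per 1000000 UMIs (CPM). UMIs were summed per library and cluster and compared, 2 sums against 2, with edgeR 4.0.16 (R 4.3.3, TMM, filterByExpr, quasi-likelihood test, Benjamini-Hochberg over all genes, adjusted p under 0.05). Alternatives were DESeq2 1.42.0, no TMM, no filter, a library block, no doublets, no cells under 2000 UMIs, Leiden clustering (10 principal components, 30 neighbours, resolution 1) and, against all other cells, equal weights. The main edgeR fit was checked on simulated data for the comparisons of 2 sums against 2. The alternatives and the comparison of the last step with the one before were not checked in this way. The sums compared come from the same libraries, so the replicate number pairs them. Their deviations correlated at 0.167 to 0.668 over the 6 comparisons of this kind. The main fit had no block.

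Doublets were kept. The automatic Scrublet thresholds called 1 cell, so the 8% of cells with the highest score, 1528, were left out as an alternative chosen after this was seen. Cells were thinned to 2000 UMIs for shares, and 1898 cells under that number were left out, which left 308 of 1298 cells of cluster 7 and all 627 of cluster 12. Intervals are exact binomial at 95% and, like the limit of 3 counts for a count of 0, cover counting error only. The named further genes are, by role, those with the 2 highest log2 fold changes and the lowest among those called between clusters 12 and 3, with SLN, PLN, CASQ1 and ATP2A3 always given. RYR3, JPH2, STRIT1, TTN and TRDN were not analysed here, and 1 gene that the rule names is not reported here. Likeness was Pearson's r of log2(CPM + 1) over 9064 genes with at least 1000 UMIs.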

Additional observations from a re-analysis of the deposited data

How the results depend on the processing

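The 7 higher and 1 lower genes in cluster 12 against all other cells, and the 6 and 1 against cluster 3, were called the same way under every alternative with a test. In cluster 3 against all other cells, 1 of the 9 genes was lower, but 2 without TMM, without doublets or under Leiden clustering, 3 with the library as a block and 4 with equal weights for the other clusters. From cluster 1 to cluster 3, 5 were higher, but 3 in DESeq2. The count of 5 includes ATP2A1, which passed the filter on low counts only through cluster 3. Of the further calcium genes, 5 were lower in cluster 12 than in cluster 3, but 3 in DESeq2 or under Leiden clustering and 8 with the block. From cluster 1 to cluster 3, 11 were higher, but 7 under Leiden clustering, and 5 were lower, but 2 in DESeq2, 3 under Leiden clustering and 9 with the block. From cluster 8 to cluster 1, 7 were lower, but 2 in DESeq2 and 3 under Leiden clustering. Counts under every alternative are a description. Apart from DESeq2 and no TMM, they have no share of all genes from the same fit beside them. DESeq2 also called fewer of all genes. It called 845 of 10811 lower between clusters 12 and 3, against 1687 in the main fit. From cluster 1 to cluster 3 it called 1611 higher and 1254 lower of 11362, against 2394 and 2168. From cluster 8 to cluster 1 it called 1185 of 11194 lower, against 1891. In cluster 7, 10 were higher and 10 lower, but 22 and 5 without TMM, and 5 were lower without cells under 2000 UMIs. In the comparison of the last step with the one before, the block gave 2 rather than 1 lower of the 9 genes, and 5 rather than 2 lower of the further genes, as did no TMM. Of the 9 genes, 6 were highest in cluster 12, but 3 under Leiden clustering. The ATP2A1 share was then 29.0% in the match of cluster 12, against 38.84%, and 8.757% in that of cluster 7, against 3.832%. In cluster 9 this share was 0.4502% and 0.0823% in the single libraries. The cause was not tested. Leaving out 1 library left no test, and its value was that of the other library. CACNG1 from cluster 1 to cluster 3 depended on it, at 0.20 without replicate 1 and 1.96 without replicate 2. In cluster 7 against all other cells CACNB1 was at -0.55 without replicate 1 and 0.81 without replicate 2. CACNA1S, with 0 UMIs of cluster 7 in replicate 1, was at 1.56 and -6.39 in the same order.

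No result changed its sign past the threshold. Outside these counts, the block gave the calls named beside each result. For single genes, 1317 values under an alternative were counted as unchanged, 44 passed where the main value did not and 43 no longer passed. Another 74, without a test, moved by more than 1 SE. Unchanged meant the same side of the threshold or, for a single library, within 1 SE of the main value. It includes changes of sign where neither value passed, such as JSRP1 between clusters 12 and 3. The planned count of promoter motifs was not run. Depth limits CACNA1S, with 119 UMIs, and all low genes in cluster 7.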

Other observations

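Beyond the genes described, FKBP1A, which encodes a binding protein of ryanodine receptors, differed between the libraries, at 99.2 CPM in replicate 1 and 158.3 in replicate 2 over all cells (0.67 on the log2 scale). It stood at 103.9 and 167.7 in cluster 3, 109.3 and 163.3 in cluster 12 and 82.9 and 146.0 in cluster 9, so that replicate 2 was higher in each of these clusters, and between clusters 12 and 3 it differed by 0.10 ± 0.23 (edgeR with Benjamini-Hochberg adjustment, adjusted p = 0.7644).

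Several further calcium genes had their level in cluster 7 above that in cluster 12. CACNA2D1 was at 82.5 and 83.7 CPM in cluster 7 against 28.9 and 30.4 in cluster 12, ITPR2 at 32.3 and 32.8 against 14.2 and 12.1, STIM2 at 32.3 and 35.3 against 20 and 17.42, and CAMK2G at 81.4 and 77.9 against 30.6 and 27.0. These genes were picked after their levels had been seen, and the difference was not tested. CPM carry no TMM scaling, and without it most called genes were higher in cluster 7. Against all other cells, 4768 of 13036 genes were then higher and 1625 lower, with a median log2 fold change of 0.52 over all genes. No such share was taken for cluster 7 against cluster 12, so these values do not show whether the higher levels are particular to calcium genes.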
